A study of Arabidopsis thaliana with 4 samples.

Results

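The 9 cuticular wax synthesis genes KCS1, KCS6, KCR1, CER10, CER1, CER2, CER3, CER4 and MAH1 were taken by locus from a deposited table of 33558 Arabidopsis thaliana loci, and all 9 were found there. They cover the elongation of very-long-chain fatty acids in the endoplasmic reticulum and the reactions that turn the products into wax alkanes, alcohols and ketones. RNA came from material labelled shoot of 7-day-old seedlings. One genotype was the accession Col-0, and the other was labelled hfr1-4pil1-2, a line that carries mutant alleles of both HFR1 and PIL1 and is called hfr1 pil1 below. Both genes encode transcription factors that are known to act when plants are shaded. Seedlings of each genotype had either 7 d of continuous white light (30 to 50 µE, R:FR 1.2) or 3 d of that light and then 96 h of low R:FR light, made of red (13 µE), blue (1.23 µE) and far-red (20 µE) light, at 22 °C on sugar-free agar. Light quantity, blue light and R:FR changed together, so their parts in a response cannot be told apart.

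The cuticle is the lipid coat that epidermal cells lay over aerial organs. It consists of the polyester cutin and of waxes, and it limits water loss. For wax, the fatty acid elongase adds carbon units in cycles, with a 3-ketoacyl-CoA synthase (KCS) for condensation, KCR1 for the first reduction, PAS2 for dehydration and CER10 for the second reduction. CER2-type proteins let the condensing enzyme KCS6 reach the longest chains. CER1 and CER3 act together to make alkanes, MAH1 oxidises alkanes to secondary alcohols and ketones, and CER4 reduces acyl chains to primary alcohols.

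The labels list 1 sample per group, but the deposited Col-0 columns are means, and their values resolved into whole reads of 2 libraries per light. With 1 library per light for hfr1 pil1 this gave 6 libraries of 7358583 to 14684713 recovered reads. Values below are read counts divided by the authors' size factor of the library (normalized counts). Fold changes are edgeR's fitted log2 values with an approximate SE, and "rose" and "fell" mean a Benjamini-Hochberg adjusted p under 0.05 over 20012 genes in edgeR's quasi-likelihood test. Each hfr1 pil1 library stands alone, and its spread was borrowed from Col-0. Whether paired Col-0 libraries came from different plants is not stated, so the p-values measure the spread between these libraries, which may be technical. Transcripts of HFR1 and PIL1 did not lie below the Col-0 range in the mutant libraries. In white light HFR1 was at 189 there (22.2 and 33.6 in Col-0) and PIL1 at 220 (12.7 and 20.4 in Col-0). In low R:FR HFR1 was at 2112, between the Col-0 values of 2046 and 2359. PIL1 was then at 1574, far above the Col-0 values of 241 and 313. Transcript levels thus do not check the genotype label, and every genotype difference below rests on it. In bulk tissue, fewer cells of a type and less RNA per cell cannot be told apart.

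After 96 h of low R:FR, Col-0 shoots held more transcript of most wax genes and less of CER1. Of the 9 genes, 8 passed the filter on low values (a mean of at least 10.8 normalized counts), and MAH1 did not. Of the 8, 6 rose (KCS1, KCS6, KCR1, CER2, CER3 and CER4), CER1 fell, and CER10 did not pass the test. Over all genes tested, 23% were called higher and 25.3% lower (48.3% in either direction), and the median log2 fold change was -0.02, against 0.79 for the 8. Together the 9 genes took 0.0590% of the white light Col-0 column, and 0.106% of the low R:FR one.

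**Figure D1:**
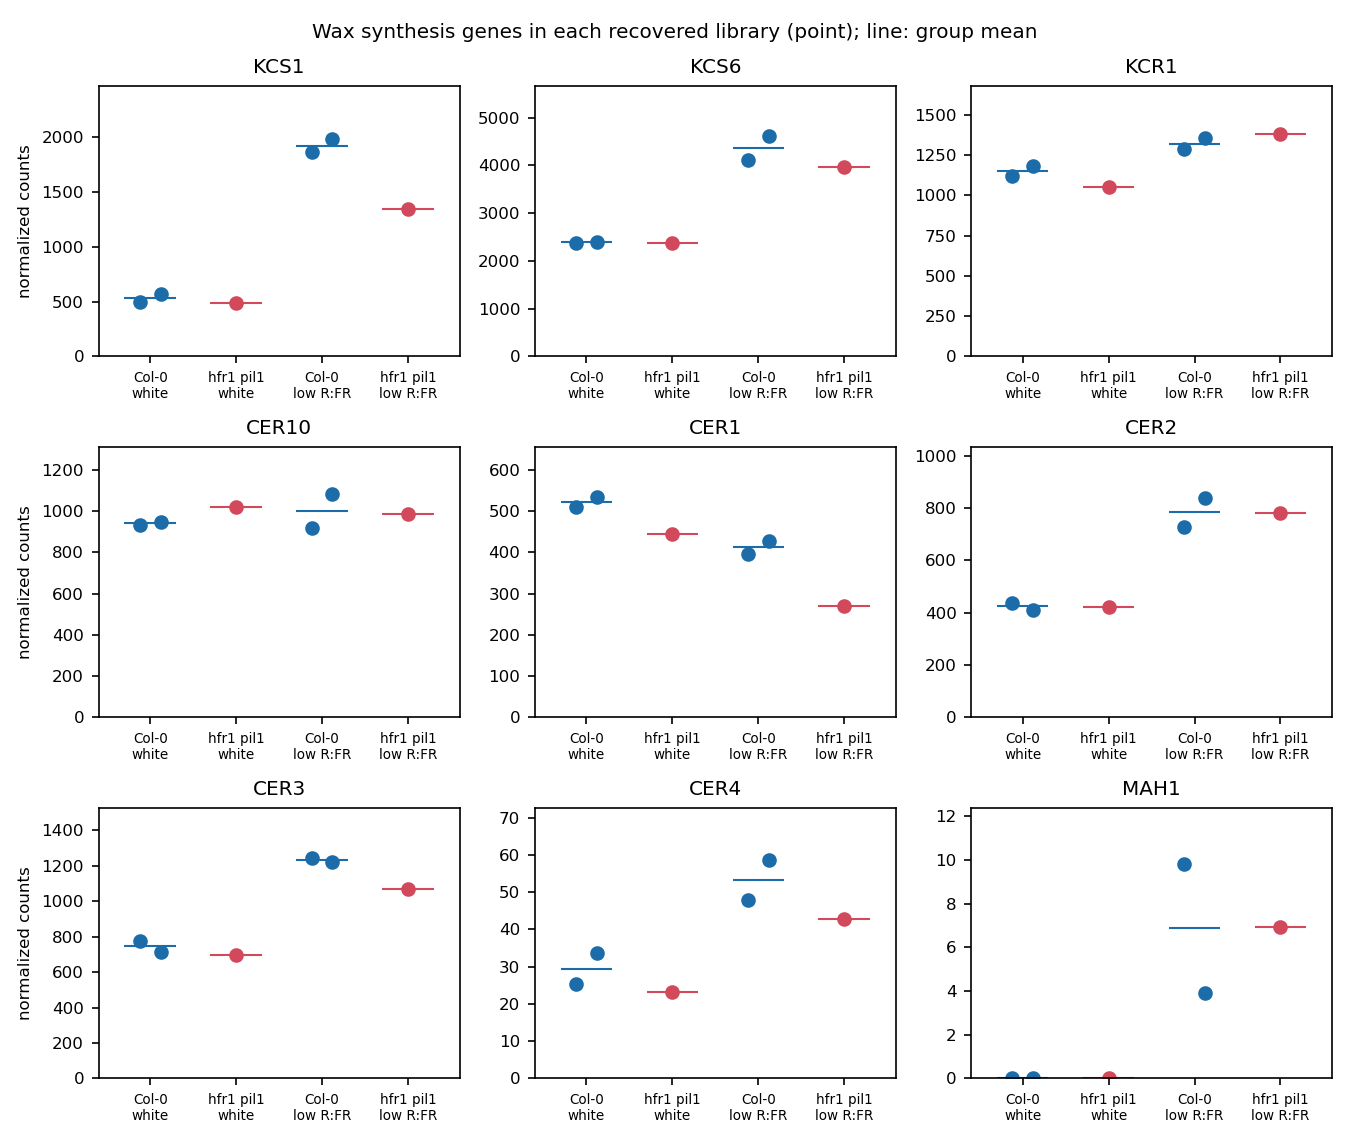
Normalized counts (vertical axes, from 0) of the 9 wax genes in the 4 groups of genotype and light (horizontal axes), with 1 point per recovered library (Col-0 blue, hfr1 pil1 red) and a line at the group mean. KCS1 lies at 487 to 569 in white light and at 1344 to 1982 in low R:FR, CER1 is lower in low R:FR in both genotypes, and MAH1 has no read in white light.

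KCS1 (AT1G01120; chromosome 1, 57164 to 59215, minus strand, TAIR10.1) encodes a condensing enzyme of broad expression. Col-0 had 493 and 569 normalized counts of it under white light, and 1867 and 1982 under low R:FR. The hfr1 pil1 libraries had 487 and 1344. The low R:FR libraries thus lay far above the white light libraries in both genotypes, and the mutant low R:FR library lay below both Col-0 ones. KCS1 rose by 1.86 ± 0.079 (SE) in Col-0, a 3.64-fold change (edgeR, Benjamini-Hochberg adjusted p = 1.25e-09), and by 1.46 ± 0.11 in hfr1 pil1 (adjusted p = 7.57e-07 in the same fit). For hfr1 pil1, counting error alone gave a 95% interval of 1.32 to 1.61.

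KCS6 (AT1G68530, also named CER6 and CUT1; chromosome 1, 25712414 to 25715024, minus strand) encodes the condensing enzyme best known for wax. It had 2383 and 2403 normalized counts in Col-0 white light and 4121 and 4609 in low R:FR, and in hfr1 pil1 2374 and 3963. White light values were nearly equal across the genotypes, and no low R:FR value came near them. The rise was 0.87 ± 0.069 (SE) in Col-0 (edgeR, Benjamini-Hochberg adjusted p = 3.77e-07) and 0.74 ± 0.098 in hfr1 pil1 (adjusted p = 6.61e-05).

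KCR1 (AT1G67730; chromosome 1, 25391338 to 25393889, plus strand), the ketoacyl reductase of the elongase, had 1121 and 1184 normalized counts under white light and 1288 and 1353 under low R:FR in Col-0, and 1054 and 1382 in hfr1 pil1. The groups did not overlap, but the change was small, at 0.20 ± 0.066 (SE) in Col-0 (edgeR, Benjamini-Hochberg adjusted p = 0.0250) and 0.39 ± 0.096 in hfr1 pil1 (adjusted p = 0.00623). The Col-0 call did not hold without Col-0 white light library 1 (adjusted p = 0.185) or without Col-0 low R:FR library 2 (adjusted p = 0.124), nor with DESeq2 (adjusted p = 0.155), and DESeq2 did not call the hfr1 pil1 rise either (adjusted p = 0.0647).

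CER10 (AT3G55360; chromosome 3, 20520930 to 20523098, minus strand), the enoyl-CoA reductase that ends each elongation cycle, had 935 and 948 normalized counts in Col-0 white light and 920 and 1084 in low R:FR. In hfr1 pil1 it had 1020 and 988. The groups overlapped, and the fitted differences were 0.09 ± 0.080 (SE) in Col-0 and -0.05 ± 0.12 in hfr1 pil1 (edgeR, Benjamini-Hochberg adjusted p = 0.399 and 0.797). Without Col-0 low R:FR library 2 the Col-0 value changed sign, to -0.03. Its last bases overlap those of the neighbour AT3G55350 on the other strand, and whether counting used strand is not given in the sources used here.

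CER2 (AT4G24510; chromosome 4, 12660687 to 12662656, plus strand), the partner protein of KCS6 in chain elongation, went from 438 and 409 normalized counts in Col-0 white light to 728 and 839 in low R:FR, and in hfr1 pil1 from 423 to 781. Both genotypes reached the same range in low R:FR. The rise was 0.88 ± 0.085 (SE) in Col-0 (edgeR, Benjamini-Hochberg adjusted p = 2.31e-06) and 0.89 ± 0.12 in hfr1 pil1 (adjusted p = 0.000107). Its locus overlaps 2 genes on the other strand, the non-coding AT4G07275 and the end of AT4G24520, so that without strand some of these reads may not be CER2's.

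CER1 and CER3 form the alkane branch, and they moved in opposite directions. CER1 (AT1G02205; chromosome 1, 418416 to 422579, plus strand) had 509 and 533 normalized counts under white light and 397 and 428 under low R:FR in Col-0. In hfr1 pil1 it had 444 and 270, the lowest value of the 6 libraries. CER1 fell by 0.34 ± 0.079 on the log2 scale (SE) in Col-0 (edgeR, Benjamini-Hochberg adjusted p = 0.00336) and by 0.72 ± 0.13 in hfr1 pil1 (adjusted p = 0.000746). The counting interval of the latter ran from -0.96 to -0.48. DESeq2 did not call the fall in Col-0 (adjusted p = 0.138) and called it in hfr1 pil1 (adjusted p = 0.0193).

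CER3 (AT5G57800; chromosome 5, 23420184 to 23424117, plus strand) had 776 and 716 normalized counts in Col-0 white light, 1245 and 1224 in Col-0 low R:FR, and 699 and 1071 in hfr1 pil1. All low R:FR libraries were above all white light ones. The rise was 0.72 ± 0.068 (SE) in Col-0 (edgeR, Benjamini-Hochberg adjusted p = 1.81e-06) and 0.62 ± 0.10 in hfr1 pil1 (adjusted p = 0.000354).

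The ratio of CER1 to CER3 within a library does not depend on the size factor. Per kb of coding sequence it was 0.658 and 0.748 in the Col-0 white light libraries and 0.320 and 0.351 in Col-0 low R:FR. The hfr1 pil1 libraries gave 0.636 and then 0.252. Exact (Clopper-Pearson) 95% intervals, which cover counting error only, ran from 0.572 at the lowest for white light libraries and up to 0.387 at the highest for low R:FR libraries, so the lights did not overlap.

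**Figure D2:**
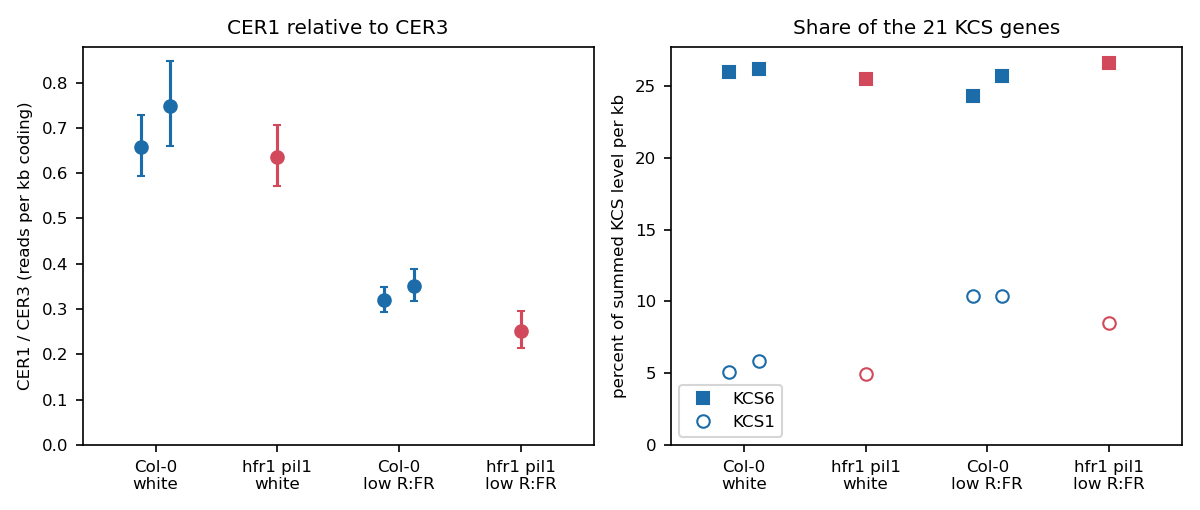
Left, the ratio of CER1 to CER3 reads per kb of coding sequence in each library, with exact 95% counting intervals. Right, KCS6 (squares) and KCS1 (open circles) as percent of the summed level per kb of the 21 KCS genes. Groups are on the horizontal axes (Col-0 blue, hfr1 pil1 red). The ratio lies at 0.636 to 0.748 under white light, against 0.252 to 0.351 under low R:FR, while KCS6 keeps a share of 24.3% to 26.6% and KCS1 goes from 4.93% to 5.83% up to 8.50% to 10.4%.

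CER4 (AT4G33790; chromosome 4, 16204096 to 16207956, minus strand), the reductase of the primary alcohol branch, was a low transcript here. It had 32 and 28 reads (25.4 and 33.6 normalized counts) in Col-0 white light and 78 and 75 reads (47.9 and 58.8) in low R:FR. In hfr1 pil1 it had 30 and 31 reads (23.1 and 42.9). It rose by 0.87 ± 0.23 (SE) in Col-0 (edgeR, Benjamini-Hochberg adjusted p = 0.00657). The call was lost without Col-0 white light library 1 (adjusted p = 0.0912), without Col-0 low R:FR library 2 (adjusted p = 0.0554) and with DESeq2 (adjusted p = 0.181). The hfr1 pil1 difference was of like size, 0.89 ± 0.38 (SE), and did not pass (edgeR, Benjamini-Hochberg adjusted p = 0.0893), with a 95% interval from read counting of 0.12 to 1.67.

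MAH1 (AT1G57750, named CYP96A15 in RefSeq; chromosome 1, 21383812 to 21385709, minus strand), the alkane hydroxylase, had 0 reads in each of the 3 white light libraries. In low R:FR it had 16 and 5 reads in Col-0 and 5 in hfr1 pil1, which is 9.82, 3.92 and 6.91 normalized counts. Against a floor of 3 reads over the white light libraries of a genotype, the measured low R:FR level was 5.04-fold higher in Col-0 and 2.99-fold higher in hfr1 pil1. The counting error of the low R:FR reads is not included, so these are not lower bounds. The Col-0 ratio rests on few reads: it was 2.73 without low R:FR library 1 and 6.86 without library 2, and 2.01 and 3.03 without white light library 1 or 2. With no filter on low values edgeR gave Benjamini-Hochberg adjusted p = 0.000573 in Col-0 and 0.0343 in hfr1 pil1, on 21 and 5 reads in all.

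Compared per kb of coding sequence, KCS6 was the most abundant of the 9 in every library, at 1589 to 1609 normalized counts per kb under white light, against 2653 to 3085 under low R:FR. KCR1 (1102 to 1237) and CER10 (1002 to 1093) followed in white light with ranges that did not meet. The order of these genes depends on the length used. KCR1 has 957 coding and 1819 exon bases, and CER10 has 933 and 1431. Levels per kb of exon were not computed, and the counting tool is not given in the sources used here. CER3 (368 to 409), KCS1 (307 to 359) and CER2 (323 to 346) came next in white light, the latter 2 with overlapping ranges. CER1 stood at 234 to 282, CER4 at 15.6 to 22.6 and MAH1 at 0. In low R:FR the order changed for KCS1, which at 847 to 1249 per kb passed CER3 (564 to 656) and lay above CER2 (575 to 663). KCS1 lay above CER10 (986 to 1162) in both Col-0 low R:FR libraries and below it in hfr1 pil1. CER2, below CER3 in every white light library, lay above it in Col-0 low R:FR library 2 (663 against 644) and in hfr1 pil1 (617 against 564). CER1 (142 to 226) stayed above CER4 (28.9 to 39.6) and MAH1 (2.62 to 6.58).

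The promoter windows of the gene with the largest rise among the 8 tested (KCS1), of the main wax condensing enzyme (KCS6) and of the oppositely moving alkane pair (CER1 and CER3) are shown here, since these 4 carry the contrast above. Each is the 250 bases before the RefSeq gene start, from the TAIR10.1 genome, read 5′ to 3′ on the strand of the gene. Capitals mark matches on either strand to the 5 motifs searched, which were the G-box CACGTG, the PIF-binding E-box CACATG, the SPL core GTAC, the GCC box GCCGCC and the MYB element TAACTA.
KCS1, chr1:59216-59465, minus strand: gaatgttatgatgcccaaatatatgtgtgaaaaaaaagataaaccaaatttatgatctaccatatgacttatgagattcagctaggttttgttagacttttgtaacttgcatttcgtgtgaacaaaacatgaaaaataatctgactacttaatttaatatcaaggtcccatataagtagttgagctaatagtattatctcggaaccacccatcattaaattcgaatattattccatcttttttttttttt
KCS6, chr1:25715025-25715274, minus strand: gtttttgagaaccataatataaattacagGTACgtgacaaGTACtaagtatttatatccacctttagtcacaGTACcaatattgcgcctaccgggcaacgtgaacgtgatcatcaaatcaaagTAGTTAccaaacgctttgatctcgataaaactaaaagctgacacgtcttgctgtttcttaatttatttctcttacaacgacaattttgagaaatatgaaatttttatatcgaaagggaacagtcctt
CER1, chr1:418166-418415, plus strand: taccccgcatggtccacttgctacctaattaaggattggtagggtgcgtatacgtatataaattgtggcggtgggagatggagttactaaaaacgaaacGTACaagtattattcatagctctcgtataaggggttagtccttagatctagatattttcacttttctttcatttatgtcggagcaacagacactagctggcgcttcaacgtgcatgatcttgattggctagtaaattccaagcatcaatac
CER3, chr5:23419934-23420183, plus strand: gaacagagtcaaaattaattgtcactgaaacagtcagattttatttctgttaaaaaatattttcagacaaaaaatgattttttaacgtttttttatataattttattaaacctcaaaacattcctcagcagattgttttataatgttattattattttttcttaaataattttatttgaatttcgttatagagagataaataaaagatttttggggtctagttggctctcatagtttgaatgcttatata
The KCS6 window held 3 SPL cores and 1 MYB element, the CER1 window held 1 SPL core, and the KCS1 and CER3 windows held no match. Over all 9 genes, 4 windows had GTAC (34.3% of 27443 protein-coding genes), 3 had TAACTA (20.6%), 2 had CACATG (11.1%), 0 had CACGTG (6.49%) and 0 had GCCGCC (1.87%). These are matches of letters only. In the CER2 window the CACATG match, on the other strand, shares 1 base with a GTAC match.

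The responses of the genotypes were compared directly. In low R:FR, hfr1 pil1 had less KCS1 (-0.52 ± 0.093 SE, edgeR, Benjamini-Hochberg adjusted p = 0.0106) and less CER1 (-0.61 ± 0.12 SE, adjusted p = 0.0148) than Col-0, and no wax gene was higher. The 2 lower calls among 8 tested genes stand against 1.4% of all genes called lower and 0.984% called higher (2.38% in either direction). The KCS1 call held in all 8 alternative fits, with adjusted p up to 0.0409. The CER1 call was lost without Col-0 low R:FR library 2 (adjusted p = 0.0544) and with DESeq2 (adjusted p = 0.112).

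In white light edgeR called 0 of the 8 genes between genotypes (1.89% of all genes were called lower and 0.575% higher, 2.47% together), and DESeq2 also called 0. CER1 alone had an unadjusted p under 0.05, at 0.0347 (edgeR, adjusted p = 0.296), with a log2 difference of -0.23 ± 0.097 (SE). For the difference of the responses, hfr1 pil1 minus Col-0, edgeR called 0 of 8 (1.81% of all genes were called lower and 1.98% higher, 3.79% together). DESeq2 also called 0, and it gave CER4 no adjusted p in this comparison. KCS1, at -0.40 ± 0.14 (SE), had an unadjusted p under 0.05, at 0.0130 (edgeR, adjusted p = 0.152). CER1, at -0.38 ± 0.15 (SE), also did, at 0.0265 (edgeR, adjusted p = 0.222). CER2 differed by 0.01 ± 0.15 (SE) and KCR1 by 0.19 ± 0.12. In hfr1 pil1 itself 5 of 8 genes rose and CER1 fell in low R:FR, where 18.4% and 18.5% of all genes were called higher and lower (36.9% together), and the median over the 8 was 0.68 against 0.00 over all genes. The comparison of genotypes in low R:FR and the Col-0 response share the Col-0 low R:FR libraries.

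**Figure D3:**
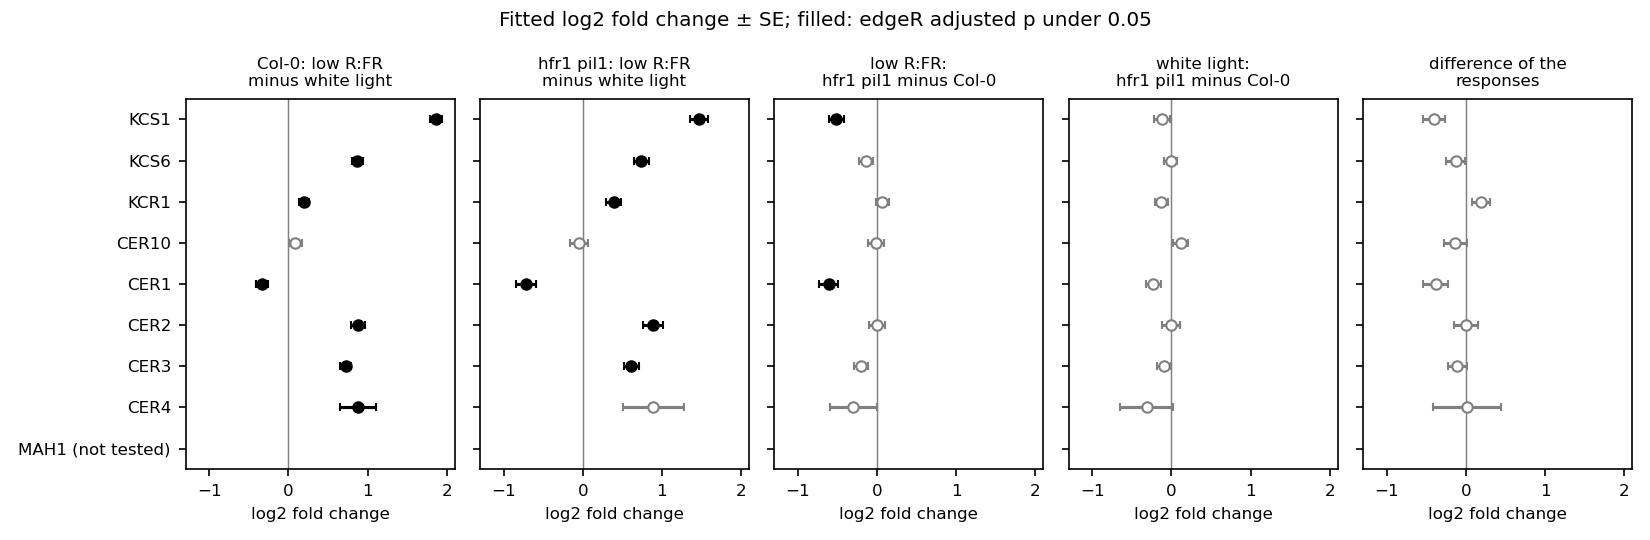
Fitted log2 fold change ± SE (horizontal axes) of 8 wax genes (vertical axis) in the 5 comparisons, filled where edgeR's adjusted p was under 0.05. MAH1 was not tested. KCS1 has the largest rise in both responses, at 1.86 in Col-0 and 1.46 in hfr1 pil1, CER1 is negative in each panel, and no gene is filled for white light between genotypes or for the difference of the responses.

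Of 22 elongation genes outside the 9, 16 were tested. In Col-0, 7 rose and 2 fell, with a median of 0.13, where 23% of all genes tested were called higher and 25.3% lower. All 7 that rose were KCS genes, and the only other genes tested on this list were PAS2 and ACC1. In hfr1 pil1 6 rose and 2 fell, with a median of 0.27, where 18.4% of all genes were called higher and 18.5% lower. In either direction, 48.3% of all genes were called in Col-0 and 36.9% in hfr1 pil1. KCS8 (AT2G15090) went from 372 to 1178 normalized counts in the Col-0 columns (1.67 ± 0.075 SE) and KCS19 (AT5G04530) from 430.5 to 1181 (1.47 ± 0.094 SE). KCS9 (AT2G16280), which is known to act in wax and suberin precursors, went from 863 to 2100 (1.28 ± 0.066 SE) and KCS3 (AT1G07720) from 383 to 796 (1.06 ± 0.073 SE). The adjusted p of these 4 lay between 2.12e-09 and 1.08e-07 (edgeR, Benjamini-Hochberg). In hfr1 pil1 the same 4 rose, KCS19 by 1.26 ± 0.13, KCS9 by 1.01 ± 0.096, KCS3 by 0.91 ± 0.11 and KCS8 by 0.79 ± 0.10 (SE). Those that fell were KCS5 (AT1G25450; -0.37 ± 0.087 SE), the closest relative of KCS6, and ACC1 (AT1G36160; -0.58 ± 0.062 SE), the cytosolic acetyl-CoA carboxylase that makes the malonyl-CoA for elongation. The KCS5 call was lost on leaving out Col-0 white light library 1 (adjusted p = 0.0633) and with DESeq2 (adjusted p = 0.120). The dehydratase gene PAS2 (AT5G10480) stood at 1166 and 1245 in Col-0 (0.09 ± 0.069 SE) and did not pass. Scaled by library totals it did (edgeR, Benjamini-Hochberg adjusted p = 0.0492).

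Summed per kb, the 21 KCS genes stood at 6143 and 6149 normalized counts in Col-0 white light, at 11358 and 11997 in Col-0 low R:FR, and at 6225 and 9957 in hfr1 pil1. KCS6 held 26.0% and 26.2% of this sum in Col-0 white light and 24.3% and 25.7% in low R:FR. KCS1 held 5.06% and 5.83%, then 10.4% in both low R:FR libraries, and in hfr1 pil1 4.93% and 8.50%. Coding sequences of KCS1 and KCS6 shared no run longer than 33 bases with another KCS gene, and KCS6 and KCS5 were 81.3% identical with a longest shared run of 23 bases. Read length is not given in the sources used here.

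Of 7 other wax enzymes 6 were tested, with a median of -0.31 in Col-0 and -0.54 in hfr1 pil1. In each genotype 3 fell and 0 rose (25.3% of all genes tested were called lower in Col-0 and 18.5% in hfr1 pil1). In Col-0 these were CER26-L (AT3G23840; -0.58 ± 0.11 SE) and CER26 (AT4G13840; -0.29 ± 0.085 SE), relatives of CER2, and CYTB5-B (AT2G32720; -0.54 ± 0.073 SE), a cytochrome b5 known to work with CER1. In hfr1 pil1 they were LACS1 (AT2G47240; -0.70 ± 0.10 SE), an acyl-CoA synthetase that activates very-long-chain fatty acids, CYTB5-B (-0.65 ± 0.11 SE) and CER26 (-0.48 ± 0.13 SE). The adjusted p of these 6 values lay between 4.78e-05 and 0.0119 (edgeR, Benjamini-Hochberg). The CER26 fall in Col-0 was lost without Col-0 low R:FR library 1 (adjusted p = 0.144) and with DESeq2 (adjusted p = 0.184), and in hfr1 pil1 with DESeq2 (adjusted p = 0.110).

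Of 6 genes for the export of wax and cutin lipids, 5 rose in Col-0 and 4 in hfr1 pil1, and 0 fell. Among all genes tested, 23% were called higher in Col-0 and 18.4% in hfr1 pil1. LTPG2 (AT3G43720; 0.94 ± 0.081 SE) and LTPG1 (AT1G27950; 0.65 ± 0.070 SE) encode lipid transfer proteins anchored at the cell surface. ABCG11 (AT1G17840; 0.79 ± 0.069 SE) and ABCG12 (AT1G51500; 0.47 ± 0.069 SE) encode transporters of wax lipids at the plasma membrane, and ABCG32 (AT2G26910; 0.34 ± 0.070 SE) one linked to cutin. The adjusted p for these Col-0 values lay between 7.79e-07 and 0.00125 (edgeR, Benjamini-Hochberg). In hfr1 pil1 ABCG11 rose by 0.77 ± 0.099, LTPG2 by 0.65 ± 0.12, ABCG12 by 0.52 ± 0.10 and LTPG1 by 0.51 ± 0.10 (SE), and ABCG32 was at -0.02 ± 0.10 (SE).

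Among 12 regulators 9 were tested, and 6 rose and 1 fell in Col-0. Of all genes tested, 23% were called higher and 25.3% lower in Col-0, and 18.4% and 18.5% in hfr1 pil1. DEWAX (AT5G61590), an AP2/ERF factor known as a repressor of wax genes including CER1, went from 214 to 804 normalized counts in the Col-0 columns (1.91 ± 0.081 SE, edgeR, Benjamini-Hochberg adjusted p = 1.26e-09). In hfr1 pil1 it went from 256 to 495 (0.95 ± 0.12 SE). Genes for MYB activators of the cuticle rose as well, MYB16 (AT5G15310) by 1.28 ± 0.096, MYB96 (AT5G62470) by 0.98 ± 0.13, MYB30 (AT3G28910) by 0.89 ± 0.096 and MYB94 (AT3G47600) by 0.77 ± 0.14 in Col-0 (SE). CER9 (AT4G34100), a ubiquitin ligase gene, rose by 0.23 ± 0.065 (SE). MYB106 (AT3G01140), which acts in cuticle and trichome development, went from 96.4 to 51.5 (-0.93 ± 0.19 SE). The non-coding AT3G01142 on the other strand covers most of this locus, so without strand some of these reads may not be MYB106's. With DESeq2 the Col-0 calls of MYB106 (adjusted p = 0.0518) and CER9 (adjusted p = 0.0977) were lost, and CER9 was also lost without Col-0 white light library 2 (adjusted p = 0.0812). In hfr1 pil1 5 of these rose, with MYB16 and MYB96 both at 0.91, and MYB106 fell (-1.04 ± 0.31 SE). MYB30 was not called there (0.32 ± 0.14 SE, edgeR, adjusted p = 0.103), though it was when scaled by library totals (adjusted p = 0.0401). DESeq2 did not call MYB94, MYB96, MYB106 or CER9 in hfr1 pil1 (adjusted p = 0.0678 to 0.293). SPL9 (AT2G42200), known as an activator of CER1, was at 88.8 and 91.3 in the Col-0 columns and did not pass.

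Cutin genes moved in both directions. Of 12, 5 rose and 4 fell in Col-0, with a median of 0.09, and 4 rose and 6 fell in hfr1 pil1, with a median of -0.55. Over all genes tested, 23% were called higher and 25.3% lower in Col-0, and 18.4% and 18.5% in hfr1 pil1. CYP86A2 (AT4G00360), a fatty acid hydroxylase of leaf cutin, rose by 1.23 ± 0.073, and the acyltransferase gene GPAT8 (AT4G00400) by 1.08 ± 0.075 (SE) in Col-0. CYP86A4 (AT1G01600; -1.17 ± 0.15 SE) and CYP77A6 (AT3G10570; -0.84 ± 0.18 SE), which are best known from floral cutin, fell. The adjusted p of these 4 lay between 2.74e-08 and 0.00181 (edgeR, Benjamini-Hochberg). With DESeq2 the Col-0 calls of CYP77A6 (adjusted p = 0.0895), GPAT6 (0.355), BDG (0.0600) and CYP86A8 (0.0517) were lost, and GPAT6 was also lost without Col-0 white light library 1 or low R:FR library 2 (adjusted p = 0.114 and 0.120) and with library totals (0.0524). In hfr1 pil1 CYP86A4 fell (-1.31 ± 0.25 SE), CYP86A2 rose (1.05 ± 0.11 SE), and DCR (AT5G23940), a cutin acyltransferase gene, and AT5G33370 fell (-1.04 ± 0.13 and -1.03 ± 0.19 SE). Among the 6 that fell there, DESeq2 did not call HTH (adjusted p = 0.154), GPAT6 (0.0512) or CYP77A6 (0.359), nor BDG (0.192) among the 4 that rose. Library totals also ended the CYP77A6 call (adjusted p = 0.0556).

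Between genotypes, 2.38% of all genes tested were called in low R:FR and 2.47% in white light. Of these lists, 2 of 16 elongation genes, 1 of 9 regulators and 3 of 12 cutin genes were called in low R:FR. None of the 6 other wax enzymes or 6 export genes was called there. In white light 1 of 16 elongation genes and 1 of 6 other wax enzymes were called, and no gene of the other lists. In low R:FR the library labelled hfr1 pil1 had less KCS9 (-0.38 ± 0.081 SE), KCS20 (-0.36 ± 0.079 SE), DEWAX (-0.70 ± 0.096 SE), CYP86A2 (-0.40 ± 0.090 SE), DCR (-0.53 ± 0.12 SE) and AT5G33370 (-0.86 ± 0.18 SE), with adjusted p between 0.00192 and 0.0372 (edgeR, Benjamini-Hochberg). Leaving out Col-0 low R:FR library 2 ended each of these calls but that of DEWAX (adjusted p = 0.0588 to 0.137), and leaving out library 1 ended those of DCR and KCS20 (0.0970 and 0.0820). In low R:FR, DESeq2 did not call KCS9, KCS20, CYP86A2 or DCR between genotypes (adjusted p = 0.0742 to 0.169). In white light the library labelled hfr1 pil1 had more KCS8 (0.56 ± 0.094 SE, edgeR, adjusted p = 0.00806) and more LACS1 (0.35 ± 0.082 SE, adjusted p = 0.0438). DESeq2 called neither (adjusted p = 0.0790 and 0.674), and LACS1 was also lost without Col-0 white light library 2 (adjusted p = 0.166).

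**Figure D4:**
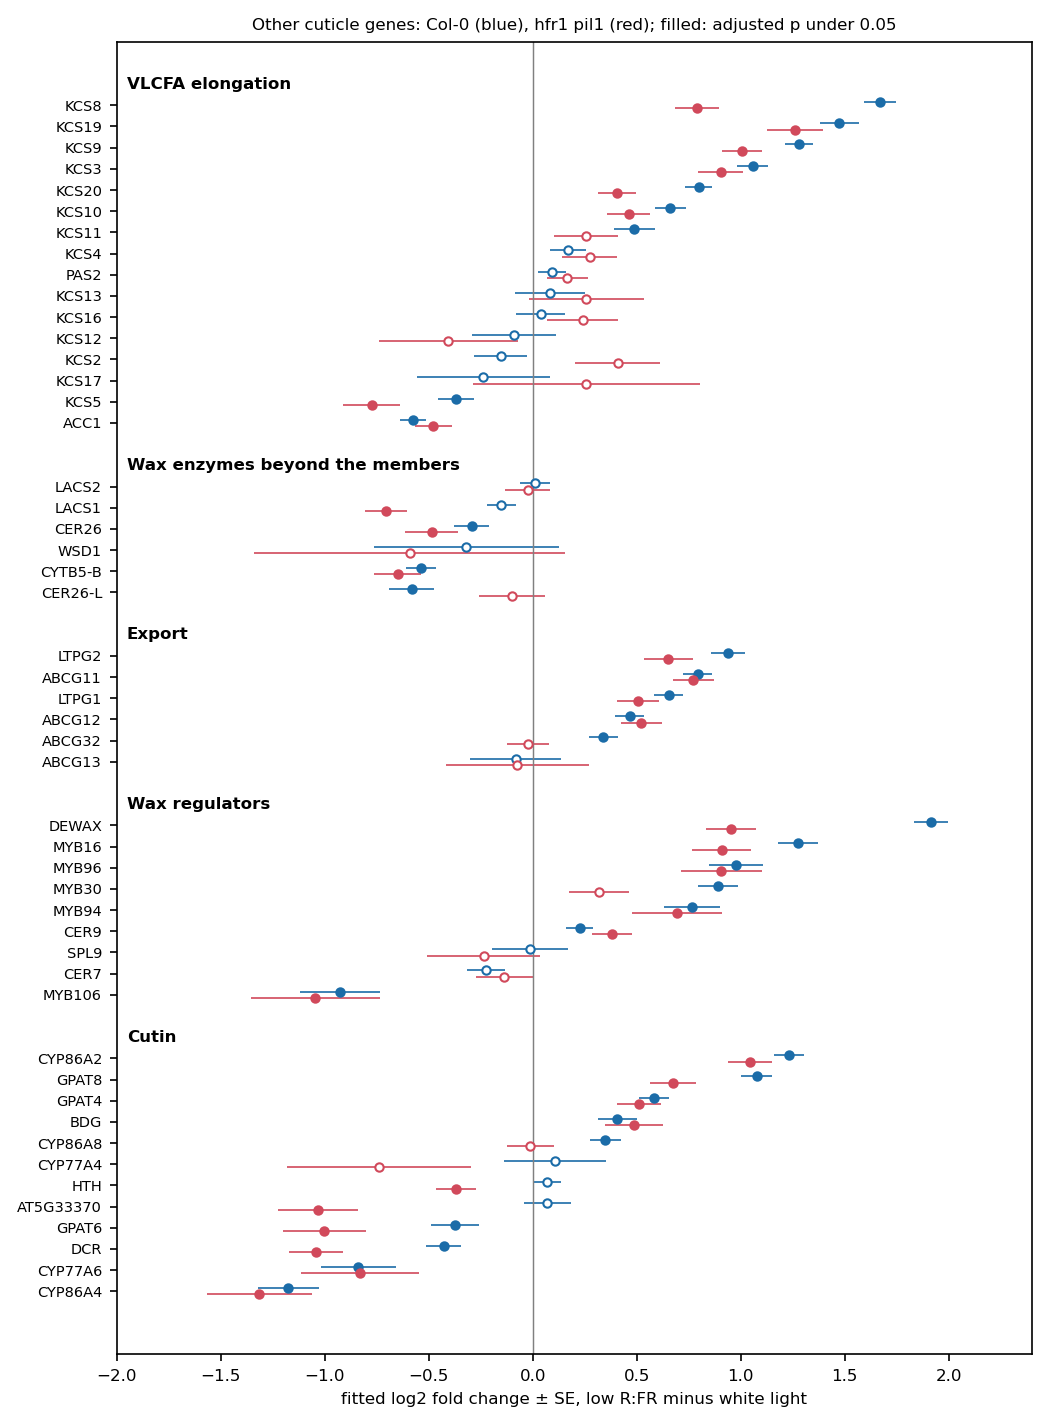
Fitted log2 fold change ± SE in low R:FR against white light (horizontal axis) for the tested genes of the 5 other cuticle lists (vertical axis), in Col-0 (blue) and hfr1 pil1 (red), filled where edgeR's adjusted p was under 0.05. Export genes and most of the KCS genes called lie to the right of 0, DEWAX lies at 1.91 and 0.95, and the called wax enzymes beyond the 9 lie to the left.

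Some markers of cell types were called between the lights, where 48.3% of all genes were called in Col-0 and 36.9% in hfr1 pil1. In Col-0 these were 4 of 6 for epidermis and 3 of 6 for root. For the guard cell lineage they were 2 of 6, and for trichomes 4 of 4. The root share was close to that of all genes, and the guard cell share lay below it. In hfr1 pil1, 5 of 6 root markers, 1 epidermis marker and 1 guard cell marker rose, and 2 guard cell and 2 trichome markers fell. Among these hfr1 pil1 calls, DESeq2 did not call COBL9 (root), MUTE, SPCH (guard cell lineage), GL2 or MYB106 (adjusted p = 0.0699 to 0.320). Of 6 epidermis markers, 4 rose in Col-0 (FDH, which is KCS10, 0.66; ATML1 0.42; PDF1 0.37; PDF2 0.27) and FDH rose in hfr1 pil1. Their summed level was 7132 to 7154 normalized counts in Col-0 white light and 9533 to 9699 in Col-0 low R:FR, and in hfr1 pil1 7634 and 8775, while the 9 wax genes summed to 6680 to 6796, 10624 to 11582, 6523 and 9849. Root markers were found in all libraries labelled shoot, with a sum over 6 genes of 683 to 856 in Col-0 white light, 1143 to 1170 in Col-0 low R:FR, 457 in hfr1 pil1 white light and 1214 in hfr1 pil1 low R:FR. In Col-0, CASP1 and CASP2 rose (1.11 and 1.13) and NRT2.1 fell (-2.59), and in hfr1 pil1 5 of the 6 rose. Of 6 guard cell lineage markers, MUTE fell (-1.25) and MYB60 rose (0.38) in Col-0, with sums of 560 to 577 and 547 to 626. Of 4 trichome markers, GL2 (-0.71), GL3 (-0.96) and MYB106 fell and GL1 rose (0.94) in Col-0, with sums of 291 to 327 and 171 to 207. Of these, the calls of MYB60, GL1 and GL3 were lost on leaving out single libraries, and those of MUTE, GL3, GL1, MYB60 and MYB106 with DESeq2. The part of these shifts in the wax gene differences was not tested.

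The gene whose profile over the 6 libraries was most like that of a wax gene was sought among 7438 other named genes. Likeness was the root mean square difference of centred log2 values, taken after adding 10.8 normalized counts to each value. For KCS6 it was ACX4 (0.027), for KCR1 ATG3 (0.021), for CER10 MPB2C (0.025), for CER2 CYP96A1 (0.026) and for CER3 AUL1 (0.029). KCS1 had PCAP1 (0.069), CER1 had HMT3 (0.068), CER4 had AHL1 (0.057) and MAH1 had ATL2 (0.086). MAH1 stood at 9.82 normalized counts at most, below the added value, so its profile was strongly flattened. The low CER4 values were flattened to a lesser degree. Each profile has 4 groups, so these are descriptions of likeness only.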

How the data were processed

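RNA from 4 labelled samples was sequenced by the authors, and the submitters' processing notes list Bowtie and TAIR10. The sources used here give no version, counting tool, read length or strand setting. Besides CER10, CER2 and MYB106, other named loci such as ABCG11, CYP86A2 and CYTB5-B also overlap genes on the other strand. The deposited values are a normalized signal, which is read counts divided by 1 factor per library, and the Col-0 columns are means per the file headers. In hfr1 pil1, 100% of values came out whole, to a tolerance of 0.01 reads. Col-0 values were solved as sums of whole multiples of 2 steps, and 74 and 83 genes of the Col-0 columns could not be split, none of them a wax gene. Tested on simulated data, 33486 and 33476 of 33558 genes were split, all rightly. Library totals of reads leave out unsplit genes in Col-0.

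The low-value filter asked for a mean of 10.8 normalized counts (the equivalent of 1 CPM) and left 20111 genes. Of these, 20012 had all 6 libraries and entered edgeR 4.0.16 under R 4.3.3 using the recovered factors, 2 residual degrees of freedom and 1 coefficient per group. The biological coefficient of variation was 0.0525. SE is the absolute log2 fold change over the square root of F. On simulated data 88 of 100 changes of 2-fold and 98 of 100 of 4-fold were recovered for the Col-0 response with 8 false calls, and 76 and 90 with 6 false calls for the hfr1 pil1 response. The simulation gave every gene the same biological coefficient of variation and changed no other genes. In the real data 48.3% of genes were called in Col-0, so these counts need not hold there. The Col-0 libraries of a light differed by more than sampling noise (chi-square over genes 2.41 for white light, 2.58 for low R:FR, each divided by the number of genes).

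Alternatives were TMM factors, library totals, DESeq2 1.42.0, no filter, leaving out each Col-0 library, fitting Col-0 alone, and other pseudocounts for log2 ratios of deposited values. The members, lists and tests were chosen with earlier results of these data known. Named genes outside the 9 were up to 4 per list and comparison with the largest called change, or all called where these were 5 or fewer; further names spell out counts and were chosen after their values were seen. Gene positions, coding lengths (the longest per gene) and windows come from RefSeq's TAIR10.1, whose name differs from the authors' build; the deposited table holds no coordinates.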

Additional observations from a re-analysis of the deposited data

Results flagged for a closer look

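Of the 8 wax genes tested, 0 passed for a different light response between genotypes, and MAH1 was not tested. Among the other listed genes, 6 had a difference of the responses (hfr1 pil1 minus Col-0) that passed edgeR's test with Benjamini-Hochberg adjustment. These were 1 of 16 elongation genes, 1 of 6 other wax enzymes, 1 of 9 regulators, 2 of 12 cutin genes and 1 of 6 guard cell markers. No export gene and no epidermis, trichome or root marker was called. Over all genes tested, 1.98% were called higher and 1.81% lower (3.79% together). DEWAX differed by -0.96 ± 0.15 (SE, adjusted p = 0.00417) and KCS8 by -0.88 ± 0.13 (adjusted p = 0.00338), both rising less in hfr1 pil1. LACS1 differed by -0.55 ± 0.12 (adjusted p = 0.0269), DCR by -0.61 ± 0.15 (adjusted p = 0.0463) and AT5G33370 by -1.10 ± 0.23 (adjusted p = 0.0181). The potassium channel gene KAT1, a guard cell marker, differed by 0.82 ± 0.18 (adjusted p = 0.0233), rising in hfr1 pil1. Leaving out Col-0 low R:FR library 2 ended the LACS1 (adjusted p = 0.0619) and KAT1 (adjusted p = 0.0504) calls. The DCR call ended on leaving out either Col-0 low R:FR library or white light library 1 (adjusted p = 0.0611 to 0.0901), and with library totals (adjusted p = 0.0533). DESeq2 called neither LACS1 (adjusted p = 0.175) nor DCR (adjusted p = 0.220).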

How the results depend on the processing

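No paired analysis was possible because the labels give 1 sample per group and the recovered libraries carry no replicate numbers. Under DESeq2 the wax genes called lower went from 1 to 0 in the Col-0 response and from 2 to 1 between genotypes in low R:FR, in both cases by the loss of CER1. Leaving out 1 Col-0 library gave 1 to 2 wax genes lower in the latter comparison, with the 1 from the fit without Col-0 low R:FR library 2. Over single wax genes, comparisons and alternatives, 316 values kept their side of the threshold, 10 lost a call, and 0 called values changed sign. The 316 include values with no call to lose, as the main fit called 0 of the 8 genes in white light and for the difference of the responses. KCS1, KCS6, CER2 and CER3 kept their calls in both responses in every alternative run. Leaving out a Col-0 library removes no library from the hfr1 pil1 response. For that response those fits changed little but the borrowed spread, so they could hardly test its calls. Over all genes DESeq2 called 2550 higher and 2509 lower in the Col-0 response (edgeR 4602 and 5056), and 1801 and 1764 in hfr1 pil1 (3676 and 3706). Between genotypes in low R:FR it called 51 and 113 (197 and 280), in white light 20 and 102 (115 and 379), and for the difference of the responses 96 and 130 (396 and 363). Without the filter these 3 comparisons gave 471 and 677, 388 and 854, and 826 and 745. Leaving out Col-0 white light library 1 gave 322 and 457 in low R:FR, 214 and 629 in white light and 652 higher for the difference, leaving out white light library 2 gave 324 and 462 in low R:FR, and leaving out low R:FR library 2 gave 239 lower for the difference. The shares of all genes set beside the genotype calls rest on these counts. Scaling by library totals put the median gene at 0.05 in the Col-0 response and 0.09 in the hfr1 pil1 response on the log2 scale. Fits without a Col-0 library leave that light with 1 library, assumed to vary like the others. Depth limits CER4 and MAH1, with at most 78 and 16 reads in any library.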
